A study of Homo sapiens with 12 samples.

Results

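HIVEP3, NFIB, NFIC, IQSEC1, SLITRK5, FERMT1 and FAM78A are 7 genes whose transcripts were lower after the BET bromodomain inhibitor CPI203 in each of 3 human cell lines. They are 7 of the 18239 genes with a probe set annotated to a single symbol, and they had 33 of the 49386 probe sets on the array. They were chosen on their fall with CPI203 in these same samples, so every value given below for CPI203 in these genes is a description and carries no test. The 12 samples came from lines of multiple myeloma, a malignancy of plasma cells, as the labels name them, and each of ARP1, JJN3 and RPMI-8226 gave 1 array per treatment. Cells were treated for 6 h with CPI203 at 0.01 µM, with CPI203, lenalidomide and dexamethasone together (Combo), with lenalidomide at 5 µM and dexamethasone at 0.05 µM (LenDex), or were left as control. What the control cells received is not given in the sources used here. Lenalidomide and dexamethasone were never given apart.

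BET proteins bind acetylated histones at promoters and enhancers and help RNA polymerase II pass into elongation, and BET inhibitors displace them from chromatin. In myeloma cells BET inhibition is known for lowering transcripts driven by strong enhancers, MYC among them. The 7 genes are not known for acting in 1 pathway. HIVEP3 encodes a large zinc finger protein that binds kappa B-like motifs, and it is known in mice as a regulator of bone formation. NFIB and NFIC encode nuclear factor I proteins, which bind DNA as dimers and regulate differentiation in many tissues. IQSEC1 encodes an exchange factor that loads GTP onto ARF6, a small GTPase of membrane traffic and integrin recycling. FERMT1 encodes kindlin-1, which binds the tails of beta integrins and helps activate them, and is best known in skin. SLITRK5 encodes a transmembrane protein with leucine-rich repeats that is known from neurons and their synapses. FAM78A is named without a role.

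The DNA just before the start sites is shown because the members' transcripts moved together with CPI203. RefSeq (GRCh38.p14) promoter entries were matched by symbol for 6 of the 7 genes, all but FERMT1. The 250 bases before the first listed start are printed for 4 genes, which form the pairs NFIC with FAM78A and NFIB with IQSEC1 whose levels ran closely together across the arrays. The pieces lie at chr19:3359380-3359629 on the plus strand (NFIC), chr9:131278036-131278285 on the minus strand (FAM78A), chr9:14322388-14322637 on the minus strand (NFIB) and chr3:13073430-13073679 on the minus strand (IQSEC1). Capitals mark GC boxes (GGGCGG, or CCGCCC on the other strand) and CCAAT boxes (CCAAT, or ATTGG on the other strand).
NFIC: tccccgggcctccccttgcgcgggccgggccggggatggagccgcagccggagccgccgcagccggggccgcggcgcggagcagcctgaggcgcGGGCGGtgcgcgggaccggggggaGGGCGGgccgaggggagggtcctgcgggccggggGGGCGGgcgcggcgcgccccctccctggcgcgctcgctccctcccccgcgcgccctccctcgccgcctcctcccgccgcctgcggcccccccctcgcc
FAM78A: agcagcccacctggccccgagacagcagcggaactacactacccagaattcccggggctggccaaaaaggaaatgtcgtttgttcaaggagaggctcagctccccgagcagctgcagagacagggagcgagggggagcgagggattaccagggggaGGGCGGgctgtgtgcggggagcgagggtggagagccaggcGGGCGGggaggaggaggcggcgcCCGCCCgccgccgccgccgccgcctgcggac
NFIB: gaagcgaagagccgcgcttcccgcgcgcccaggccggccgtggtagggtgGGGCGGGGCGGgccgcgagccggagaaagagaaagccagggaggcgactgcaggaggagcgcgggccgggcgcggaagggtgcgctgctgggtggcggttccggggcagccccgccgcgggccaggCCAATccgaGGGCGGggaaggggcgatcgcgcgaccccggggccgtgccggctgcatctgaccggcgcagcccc
IQSEC1: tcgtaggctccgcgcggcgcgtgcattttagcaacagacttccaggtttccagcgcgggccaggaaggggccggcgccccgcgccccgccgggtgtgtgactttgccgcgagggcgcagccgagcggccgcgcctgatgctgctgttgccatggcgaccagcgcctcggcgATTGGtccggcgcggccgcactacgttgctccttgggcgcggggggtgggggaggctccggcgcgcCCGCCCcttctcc

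A GC box was present in the window of 6 of the 6 members, and in 16 of 22 windows when all listed starts of these genes are counted, against 42.6% of the 35116 RefSeq promoter windows of the same length. A CCAAT box was present in 4 of 6 first windows (HIVEP3, NFIB, IQSEC1 and SLITRK5) but in 6 of 22 over all starts, against 32.0% of all windows. The half-site of nuclear factor I, TTGGC on either strand, was present in 3 of 6 (HIVEP3, NFIB and FAM78A) and 9 of 22, against 40.8%; it can overlap a CCAAT box where GCCAAT is read. The E-box CACGTG and the TATA letters TATAAA were in 0 of 6 first windows and in 1 and 0 of 22 over all starts, and they occurred in 6.34% and 10.7% of all windows. Of the 6 first windows 5 had a share of G and C above the upper quartile of all windows, and SLITRK5 was near the median. NFIC had 87.2% G and C with 41 CpG pairs, NFIB 78.4% with 36, HIVEP3 74.8% with 27, IQSEC1 74.0% with 36, FAM78A 70.4% with 22 and SLITRK5 59.2% with 13, while all windows had a median of 58.0% (quartiles 46.4% and 68.0%) and 11 CpG pairs. NFIB has 10 listed starts and FAM78A 4, and which start these cells use was not measured, so these matches describe letters only.

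Levels are on the log2 scale as the authors deposited them, so a difference of 1 is a doubling, and the array medians lay between 5.304 and 5.375. No detection call was used here, so a level near that median may be background. Arrays of the lines labelled JJN3 and RPMI-8226 were close to each other (correlation 0.963 to 0.981 over the 15173 genes tested), and ARP1 arrays correlated with them at 0.867 to 0.887. The plasma cell markers SDC1 (11.78 to 12.26) and PRDM1 (10.96 to 11.55) were high on the arrays of ARP1, while the arrays labelled JJN3 had SDC1 at 5.15 to 5.79 and PRDM1 at 4.84 to 5.97, and those labelled RPMI-8226 had SDC1 at 4.96 to 5.38 and PRDM1 at 5.09 to 5.58. The B cell marker MS4A1 (CD20) ran the other way, at 4.59 to 5.33 in ARP1 against 11.63 to 11.89 in the arrays labelled JJN3 and 11.48 to 12.06 in those labelled RPMI-8226. SDC1 and PRDM1 were therefore near the array median in samples labelled JJN3 and RPMI-8226, which for these genes goes against both labels. On these arrays CD38 was also low (5.54 to 6.29), and SLAMF7 (6.83 to 9.99) and TNFRSF17 (5.52 to 9.83) varied. But IRF4 (12.37 to 13.31), XBP1 (10.27 to 10.66) and MZB1 (10.13 to 10.61) were high there. The 8 plasma cell markers had a median of 6.73 to 8.63 there and 11.56 to 11.75 in ARP1. The 6 measured B cell markers had 8.24 to 8.76 there and 5.2 to 5.56 in ARP1. PAX5 was alike, at 6.87 to 7.27 there and 6.94 to 7.41 in ARP1. Whether JJN3 and RPMI-8226 are separate lines was not tested. The JJN3 control array also stood apart in the immunoglobulin gene IGKC, at 9.32 against 5.35, 5.55 and 5.11 on the CPI203, Combo and LenDex arrays of that line. Of the T cell list, CD3D was at 7.33 to 7.68 on the arrays labelled JJN3, against 5.05 to 5.39 in RPMI-8226 and 4.89 to 5.21 in ARP1. The median levels of 4 T cell markers (4.88 to 5.31) and 4 myeloid markers (4.88 to 5.56) were near the array median on every array. The median of the erythroid list was too (4.80 to 5.63, 3 of 6 genes measured), but its fetal globin gene HBG1, whose probe set may also read the near-identical HBG2, was at 12.26 to 12.40 in ARP1 and 13.19 to 13.32 in JJN3, and in RPMI-8226 at 8.43 with CPI203 and 8.53 with Combo, against 6.91 with LenDex and 6.77 in control. Its part in the differences between lines given below was not tested. None of the 8 plasma cell or the 5 tested B cell markers was called for CPI203 in limma (5 and 1 at an unadjusted p under 0.05, with the share of all genes not given here). Values are given below by label, and leaving out the JJN3 control array or averaging JJN3 with RPMI-8226 is given beside each call that it ends. Neither is given for the LenDex calls of partner genes and paralogues, and averaging is not given for differences between lines.

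The brightest probe set on average stood for a gene, and all 7 were among the 15173 genes tested, which had to reach a log2 level of 5 on no fewer than 3 arrays. CPI203 alone was below control in all 3 lines for 3284 genes (21.6% of those tested). All 7 members were among them, as the choice of genes fixes. Combo against LenDex is the same drug added on top of the other two, on other arrays, so each line gives a second pair. Over both pairs in the 3 lines, 1357 genes (8.94% of those tested) were lower with CPI203 in all 6 pairs of arrays. Of the members 6 of 7 were, which the choice of genes largely fixes, and HIVEP3 was lower in 5 of 6.

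**Figure D1:**
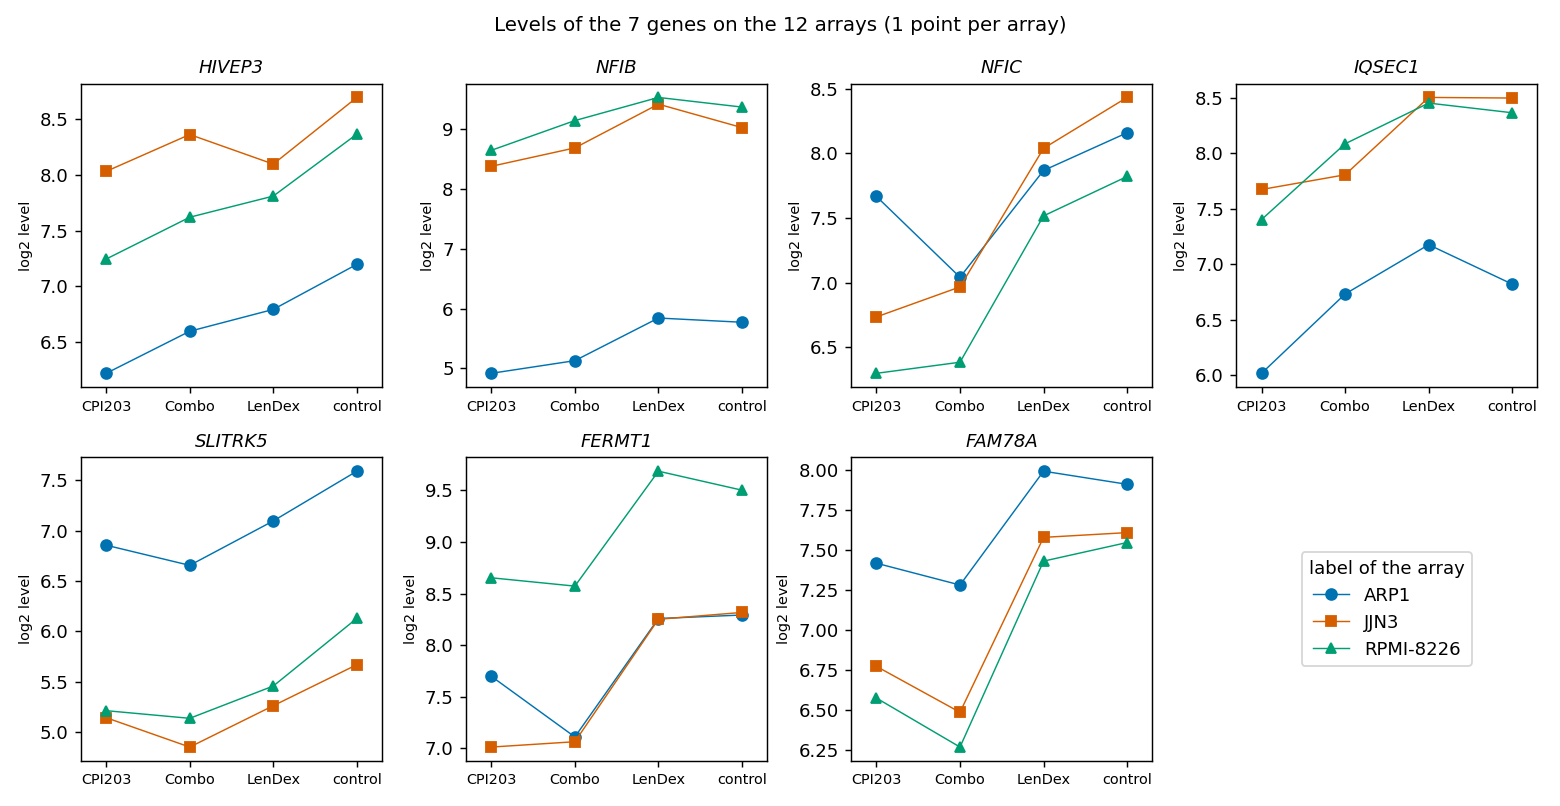
Log2 level of the representative probe set of each member on each of the 12 arrays, by treatment (CPI203, Combo, LenDex, control), with 1 line for the arrays of each cell line label. CPI203 points lie below control points in every gene and label, and the NFIB curve of ARP1 lies well below the other two.

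Among the transcription factor genes, NFIC had the largest mean difference of the 7. NFIC stood at 7.67 (ARP1), 6.74 (JJN3) and 6.30 (RPMI-8226) with CPI203, against 8.16, 8.43 and 7.82 in the control cells of the same lines. With Combo NFIC stood at 7.04, 6.97 and 6.39, against 7.87, 8.04 and 7.52 with LenDex. Within every line both NFIC values with CPI203 were below both values without it. The NFIC difference between CPI203 and control averaged -1.24 ± 0.65 (SD, n = 3 lines, as for the CPI203 differences that follow), a 2.36-fold lower level, and ran unevenly at -0.49 (ARP1), -1.70 (JJN3) and -1.52 (RPMI-8226). Between Combo and LenDex NFIC was more even across the lines, at -0.83, -1.07 and -1.13.

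NFIB had levels of 4.92 (ARP1), 8.38 (JJN3) and 8.65 (RPMI-8226) with CPI203, against 5.77, 9.02 and 9.37 in control cells. With Combo NFIB levels were 5.13, 8.69 and 9.14, against 5.84, 9.42 and 9.53 with LenDex. Within every line both NFIB values with CPI203 were below both values without it, although in ARP1 all 4 were near the array median. The mean NFIB difference was -0.74 ± 0.10 between CPI203 and control, or 1.67-fold lower, and -0.61 between Combo and LenDex, or 1.53-fold lower.

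HIVEP3, the kappa B-binding zinc finger gene, was lower with CPI203 than in control cells and near equal between Combo and LenDex. HIVEP3 levels were 6.22 (ARP1), 8.03 (JJN3) and 7.24 (RPMI-8226) with CPI203, against 7.20, 8.70 and 8.37 in control cells. With Combo HIVEP3 levels were 6.60, 8.36 and 7.62, against 6.79, 8.10 and 7.81 with LenDex. The control arrays were thus the highest of each line and the CPI203 arrays the lowest, with Combo and LenDex between them and in no fixed order. The mean HIVEP3 difference was -0.92 ± 0.23 (1.89-fold lower) between CPI203 and control, while between Combo and LenDex it was -0.04, from -0.20 in ARP1 and -0.19 in RPMI-8226 to 0.27 in JJN3.

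For the adhesion and membrane traffic genes, FERMT1 was the member with the largest difference on top of LenDex. FERMT1 levels were 7.70 (ARP1), 7.01 (JJN3) and 8.65 (RPMI-8226) with CPI203, against 8.29, 8.32 and 9.50 in control cells. With Combo FERMT1 levels were 7.11, 7.06 and 8.57, against 8.26, 8.25 and 9.69 with LenDex. In each line both arrays with CPI203 were below both arrays without it. The mean FERMT1 difference was -1.15 between Combo and LenDex, a 2.22-fold lower level spread over -1.15, -1.19 and -1.11 in the 3 lines, and -0.92 ± 0.36 between CPI203 and control, or 1.89-fold lower.

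IQSEC1, the ARF6 exchange factor, had levels of 6.02 (ARP1), 7.67 (JJN3) and 7.40 (RPMI-8226) with CPI203, against 6.82, 8.50 and 8.37 in control cells. With Combo IQSEC1 levels were 6.73, 7.81 and 8.09, against 7.18, 8.50 and 8.45 with LenDex. Arrays with CPI203 again lay below those without it in every line, by a narrow margin in ARP1. The IQSEC1 difference of CPI203 against control was alike over the lines, at -0.80, -0.82 and -0.96 (mean -0.86 ± 0.09, 1.82-fold lower), and averaged -0.50 for Combo against LenDex, or 1.42-fold lower.

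SLITRK5, the neuronal transmembrane protein gene, was at 6.86 (ARP1), 5.14 (JJN3) and 5.21 (RPMI-8226) with CPI203, against 7.59, 5.67 and 6.13 in control cells. With Combo SLITRK5 was at 6.66, 4.85 and 5.14, against 7.10, 5.26 and 5.46 with LenDex. Outside ARP1 most SLITRK5 values were close to the array median. The mean SLITRK5 difference was -0.73 ± 0.20 between CPI203 and control (1.66-fold lower) and -0.39 between Combo and LenDex (1.31-fold lower).

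FAM78A was at 7.42 (ARP1), 6.77 (JJN3) and 6.58 (RPMI-8226) with CPI203, against 7.91, 7.61 and 7.55 in control cells. With Combo FAM78A was at 7.28, 6.49 and 6.27, against 7.99, 7.58 and 7.43 with LenDex. Both FAM78A values with CPI203 were below both values without it in every line. The mean FAM78A difference was -0.77 ± 0.25 between CPI203 and control (1.70-fold lower) and -0.99 between Combo and LenDex (1.98-fold lower).

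**Figure D2:**
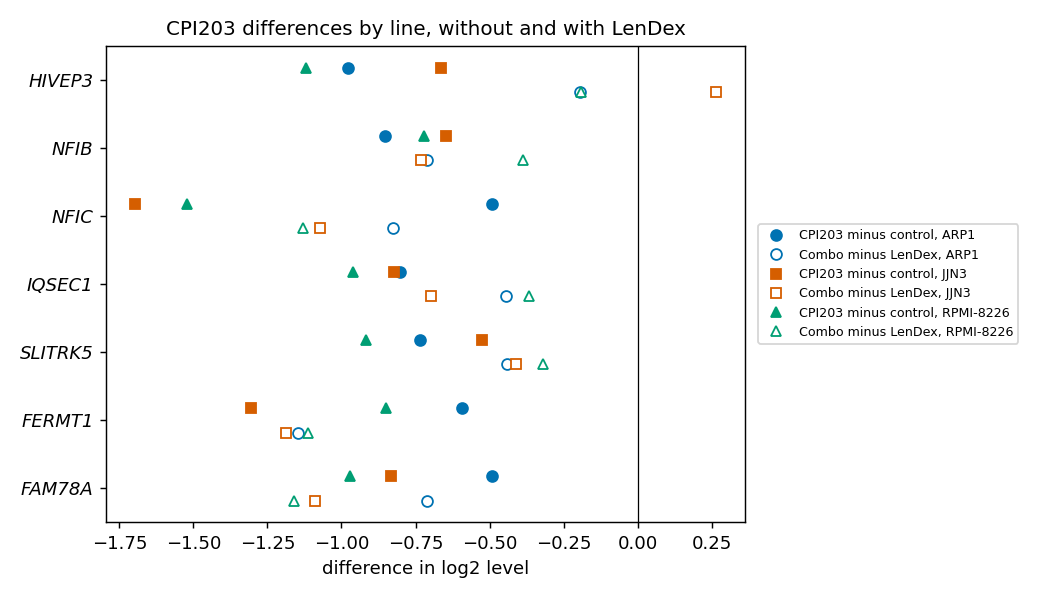
Log2 difference of the representative probe set of each member for CPI203 minus control (filled points) and Combo minus LenDex (open points) in each cell line label, with 0 as no difference. All points lie below 0 but for HIVEP3 in JJN3 with Combo against LenDex (0.27).

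Averaged over both pairs, the CPI203 differences were -1.12 for NFIC, -1.03 for FERMT1, -0.88 for FAM78A, -0.68 for NFIB and for IQSEC1, -0.56 for SLITRK5 and -0.48 for HIVEP3. Leaving out the JJN3 control array gave values from -1.07 (NFIC) to -0.51 (HIVEP3), and averaging JJN3 with RPMI-8226 gave values from -1.01 (NFIC) to -0.51 (HIVEP3). A fall of 0.5 or more in each of the 6 pairs was seen in 13 of the tested genes (0.0857%), and FERMT1, at -0.59 in its weakest pair, was the 1 member among them.

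The other probe sets of the members did not all follow the representative one. Of the 33 probe sets, 14 were lower with CPI203 in all 6 pairs, against 6.51% of the 45253 single-symbol probe sets. These were 7 of 10 for NFIC, 2 of 5 for IQSEC1, 2 of 5 for FERMT1, 1 of 5 for NFIB, 1 of 2 for SLITRK5, 1 of 2 for FAM78A and 0 of 4 for HIVEP3. Among members' probe sets with a mean level of 6 or more, 10 of 17 were lower in all 6 pairs and the median average difference was -0.68, and below that level 4 of 16 were and the median was -0.12. Over all single-symbol probe sets the share was 12.8% at a mean of 6 or more and 2.33% below it. Falls were thus less frequent among dim probe sets, in the members as over the table.

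NFIC had the widest run of probe sets that moved together, with average differences of -1.12, -0.93, -0.87, -0.85, -0.80, -0.65 and -0.32 in 7 probe sets and of -0.09, -0.03 and 0.03 in the other 3. IQSEC1 probe sets lay at -0.78, -0.68, -0.52, -0.35 and -0.05, with the representative one second in size. FERMT1 probe sets lay at -1.03, -0.65, -0.20, -0.06 and 0.18, and the second FAM78A probe set at -0.33. For NFIB the probe sets disagreed in ARP1, where the representative one differed by -0.85 between CPI203 and control and the other 4 by 0.33, 0.13, -0.01 and -0.03. HIVEP3 probe sets disagreed in ARP1 as well, where 1 of the 4 was higher by 1.17 with CPI203 than in control, and another 2 were higher by 0.66 and 0.62 with Combo than with LenDex. The second SLITRK5 probe set averaged a level of 4.77 and a difference of -0.12. Which transcripts of these genes the probe sets read was not analysed here.

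**Figure D3:**
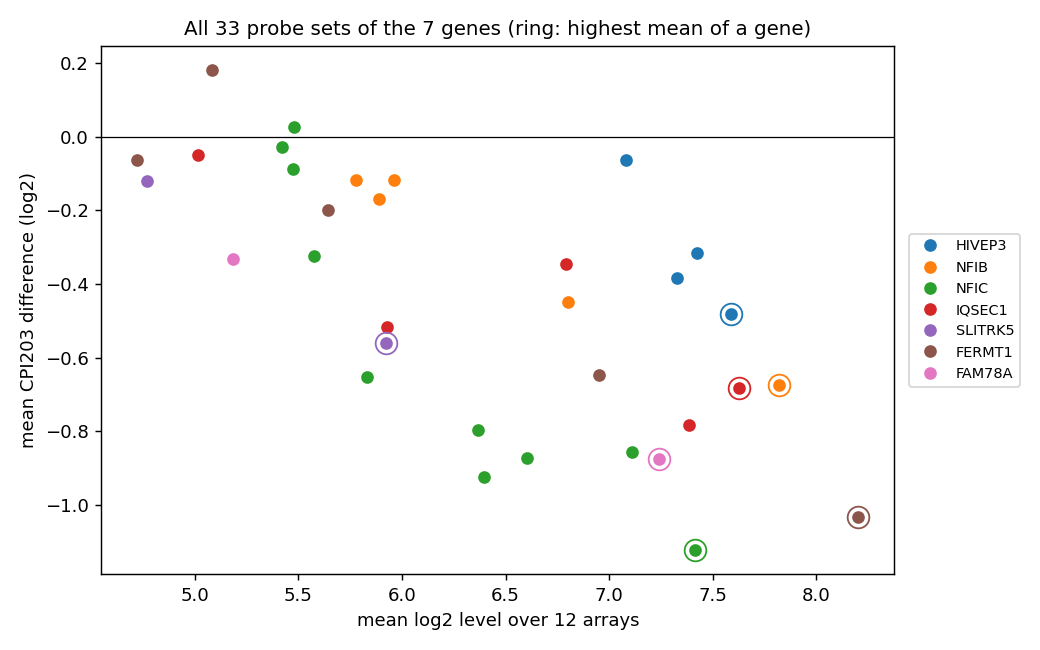
Mean log2 level over the 12 arrays (x axis) and average log2 CPI203 difference (y axis) of the 33 probe sets of the members, coloured by gene, with a ring on the probe set that represents each gene. NFIC has 7 probe sets well below 0, and probe sets with a mean under 6 mostly lie close to 0.

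The response to lenalidomide with dexamethasone was not used to choose the genes and was tested as the average of LenDex against control and Combo against CPI203, 6 arrays against 6, with limma and adjustment over all 15173 genes. Of the members 1 of 7 passed an adjusted p of 0.05, where 4.25% of all genes tested did (1.73% higher and 2.52% lower). SLITRK5 fell by 0.36 on the log2 scale (SE 0.07, 95% interval -0.51 to -0.21), a 1.28-fold lower level with a limma adjusted p of 0.0223. It was lower in 6 of 6 pairs, at -0.49, -0.41 and -0.67 for LenDex against control and -0.20, -0.29 and -0.08 for Combo against CPI203 in ARP1, JJN3 and RPMI-8226. The second, dimmer SLITRK5 probe set differed by -0.14 with a limma adjusted p of 0.39 over all probe sets. The SLITRK5 call was lost without any 1 of the 3 lines (adjusted p 0.0700 without ARP1, 0.239 without JJN3 and 0.268 without RPMI-8226). It was also lost without the RPMI-8226 control array (0.0708), the JJN3 CPI203 array (0.0725), the LenDex array of JJN3 (0.0588) or RPMI-8226 (0.0667), or the Combo array of JJN3 (0.0665) or RPMI-8226 (0.0637), with differences between -0.39 and -0.32 over all 12 such fits. LenDex against control alone, where 0.461% of all genes were called, and Combo against CPI203 alone, where 0.0461% were, called none of the 7 members in limma. With JJN3 and RPMI-8226 averaged SLITRK5 was not called either (-0.35, adjusted p 0.169).

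The other 6 members did not pass. NFIB differed by 0.27 ± 0.08 (95% interval 0.10 to 0.44, limma adjusted p = 0.0754) and IQSEC1 by 0.33 ± 0.09 (0.13 to 0.53, adjusted p = 0.0752), and both had a higher average with LenDex in each line. NFIB averaged 0.14, 0.35 and 0.33 higher in ARP1, JJN3 and RPMI-8226, and IQSEC1 0.54, 0.07 and 0.39. IQSEC1 passed without the JJN3 Combo array (difference 0.41, limma adjusted p = 0.0479) and in no other of the 12 fits that left out 1 array. The intervals of NFIC (-0.54 to 0.11), FAM78A (-0.33 to 0.07), FERMT1 (-0.31 to 0.14) and HIVEP3 (-0.27 to 0.12) included 0, with means of -0.22, -0.13, -0.09 and -0.08 and limma adjusted p-values from 0.477 to 0.709. For HIVEP3 this mean covers opposite signs, since LenDex was below control by 0.41, 0.60 and 0.56 while Combo was above CPI203 by 0.38, 0.33 and 0.38 in ARP1, JJN3 and RPMI-8226. None of the other HIVEP3 probe sets had LenDex below control and Combo above CPI203 in every line. A difference between lines in the LenDex response was not called for any of the 7 members by limma's moderated F test (adjusted p 0.561 to 0.996, and 0 of 7 at an unadjusted p under 0.05), where 0.369% of all genes tested were called.

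**Figure D4:**
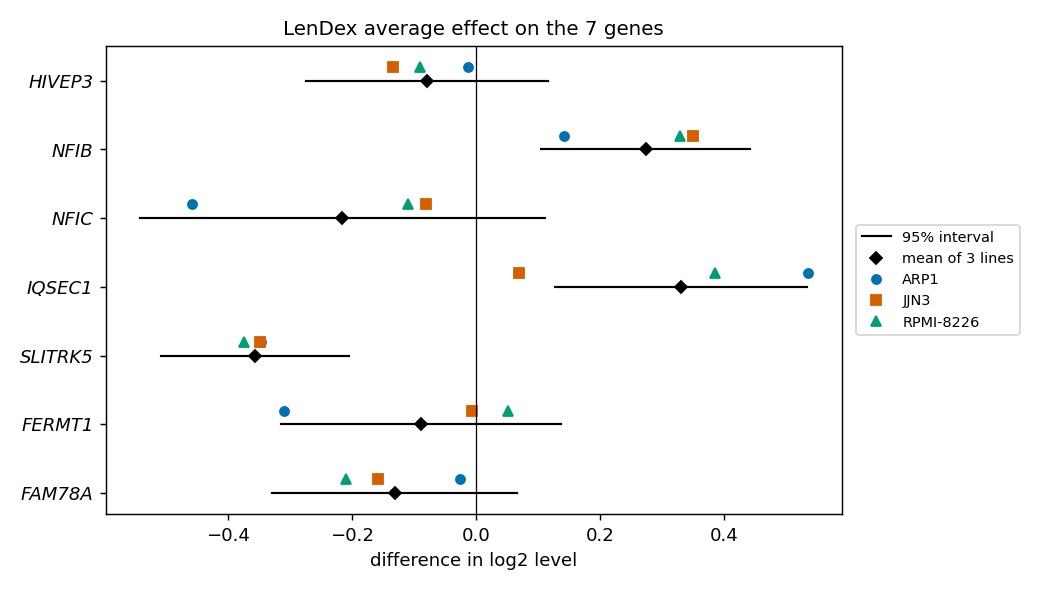
Average log2 LenDex effect (mean of LenDex minus control and Combo minus CPI203) of each member, with diamonds for the mean over lines, bars for its 95% interval (not adjusted for the number of genes) and coloured points for each cell line label. The interval of SLITRK5 lies wholly below 0, those of NFIB and IQSEC1 wholly above 0, and the other 4 cross 0.

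The choice of genes did not use their levels between line labels, and these were tested. Over 4 arrays a line, ARP1 differed from the mean of JJN3 and RPMI-8226 in 6 of 7 members by limma, against 49.5% of all genes tested, so a call is common here. In bulk samples fewer expressing cells and less RNA per cell cannot be told apart. The arrays of a line are different treatments of 1 line, and these p-values measure the spread between such arrays. NFIB showed the widest gap, at 5.42 ± 0.46 (ARP1), 8.88 ± 0.45 (JJN3) and 9.17 ± 0.38 (RPMI-8226) (SD, n = 4 arrays each). The log2 difference was -3.61 (limma adjusted p = 1.7e-10), given without a fold because the NFIB level in ARP1 may be background, and the ARP1 values did not overlap with those of either other line.

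IQSEC1 was 2.66-fold lower in ARP1, at 6.69 ± 0.49 against 8.12 ± 0.44 in JJN3 and 8.08 ± 0.48 in RPMI-8226 (limma adjusted p = 7.08e-07). HIVEP3 was 2.51-fold lower in ARP1, at 6.70 ± 0.41 against 8.30 ± 0.30 and 7.76 ± 0.47 (limma adjusted p = 8.41e-07). SLITRK5 ran the other way and was higher in ARP1 by 1.69 on the log2 scale, again with no fold because the other lines were near the array median, at 7.05 ± 0.40 against 5.23 ± 0.34 and 5.48 ± 0.45 (limma adjusted p = 1.92e-08). FAM78A was 1.53-fold higher in ARP1, at 7.65 ± 0.35 against 7.11 ± 0.57 and 6.96 ± 0.63 (limma adjusted p = 0.000288). The second, dimmer probe sets of SLITRK5 (-0.07) and FAM78A (0.08) were not called (limma adjusted p 0.52 and 0.65 over all probe sets). The other probe sets of NFIB and HIVEP3 were all called lower in ARP1, and those of IQSEC1 all but the dimmest (0.06, adjusted p 0.64). NFIC, at 7.68 ± 0.47 against 7.54 ± 0.82 and 7.01 ± 0.78, was not called (log2 difference 0.41, limma adjusted p = 0.051). It passed without JJN3 (0.68, adjusted p 0.025), without the ARP1 control array (0.53, adjusted p 0.0271), the ARP1 LenDex array (0.52, adjusted p 0.037) or the JJN3 control array (0.45, adjusted p 0.0493), and it was 0.14 without RPMI-8226 and 0.16 without the ARP1 CPI203 array. Among the other NFIC probe sets, those at 0.41, 0.49 and 0.42 were called higher in ARP1, and the rest were not called. Their limma adjusted p-values were 0.0094, 0.0101 and 0.0306 over all probe sets.

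FERMT1 split the lines differently. It was at 7.84 ± 0.56 (ARP1), 7.66 ± 0.72 (JJN3) and 9.10 ± 0.57 (RPMI-8226), which put ARP1 1.46-fold below the mean of the others (limma adjusted p = 0.00165). With RPMI-8226 left out the FERMT1 difference was 0.18 and not called (adjusted p 0.365), so the call rests on that line. Between JJN3 and RPMI-8226, FERMT1 was 2.72-fold lower in JJN3 (limma adjusted p = 6.9e-05) and HIVEP3 1.45-fold higher in JJN3 (limma adjusted p = 0.00827), 2 of 7 members against 15.5% of all genes tested. NFIB (-0.29 ± 0.09), NFIC (0.54 ± 0.18), SLITRK5 (-0.25 ± 0.08), FAM78A (0.16 ± 0.11) and IQSEC1 (0.04 ± 0.11, log2 differences with SE) did not pass, with limma adjusted p-values from 0.0591 to 0.854. NFIB and SLITRK5 passed with cyclic loess (limma adjusted p 0.02 and 0.036). For each of these members not called, the difference between JJN3 and RPMI-8226 was smaller than the SD of the arrays of either line. That SD includes the differences between treatments, which limma fitted apart. NFIC passed without ARP1 (0.54, limma adjusted p 0.00535) and in 2 of the 12 fits that left out an array. The other HIVEP3 probe sets differed by 0.61, 0.24 and 0.17 (limma adjusted p 0.0444, 0.704 and 0.683 over all probe sets).

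The paralogues of the members were not used to choose them, and their CPI203 effect was tested. There were 14 listed paralogues, of which 13 were tested and SLITRK2 did not reach the level filter. With CPI203, averaged over both pairs, 1 of 13 fell and 0 rose by limma, with a median difference of -0.16, where 3.99% of all genes tested fell, 3.3% rose (7.28% in all) and the median was -0.0032. At an unadjusted p under 0.05, 3 of the 13 were lower and 0 higher. The share of all genes tested at that threshold is not given here, so this count cannot be set against genes at large. FERMT3, which encodes kindlin-3, the integrin activator of blood cells, fell by 0.67 on the log2 scale (SE 0.11, 1.59-fold lower, limma adjusted p = 0.0178). FERMT3 levels were 8.99 (ARP1), 8.73 (JJN3) and 8.75 (RPMI-8226) with CPI203, against 9.27, 9.52 and 9.63 in control cells, and 8.77, 8.89 and 8.55 with Combo, against 9.11, 9.65 and 9.54 with LenDex.

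FERMT3 was lower with CPI203 in 6 of 6 pairs, by averages of -0.31 (ARP1), -0.78 (JJN3) and -0.93 (RPMI-8226). The FERMT3 call was kept without ARP1 and without any ARP1 array, and it was lost without JJN3 (limma adjusted p 0.336), without RPMI-8226 (0.331) and without any 1 of their 8 arrays (0.0510 to 0.0633, with differences from -0.70 to -0.61), the JJN3 control array among them (0.0510). It was also lost with JJN3 and RPMI-8226 averaged (-0.58, limma adjusted p 0.232). The third kindlin gene, FERMT2, differed by 0.09 and was not called. The paralogues of the transcription factor members were HIVEP1 (-0.44), HIVEP2 (-0.23), NFIA (-0.11) and NFIX (-0.18), and none passed (limma adjusted p 0.091 to 0.728). IQSEC2 (-0.07), IQSEC3 (-0.03) and FAM78B (-0.16) did not pass, nor did SLITRK1 (-0.21), SLITRK3 (0.14), SLITRK4 (-0.15) and SLITRK6 (-0.41), with adjusted p-values from 0.38 to 0.902. CPI203 against control alone and Combo against LenDex alone called no paralogue in limma, and they called 0.00659% and 0% of all genes. Whether a member differed from its paralogues was not tested.

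**Figure D5:**
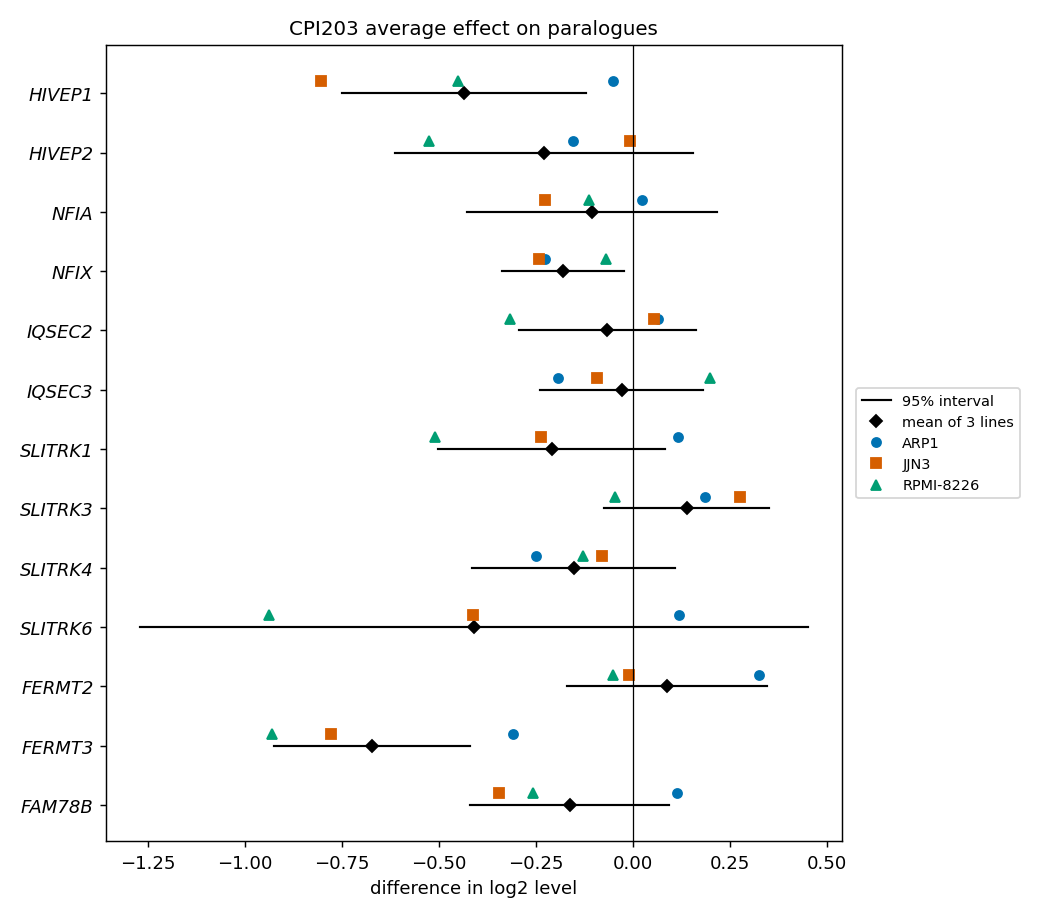
Average log2 CPI203 effect of the 13 tested paralogues, with diamonds for the mean over lines, bars for its 95% interval (not adjusted for the number of genes) and coloured points for each cell line label. FERMT3 (-0.67) has the lowest mean, and the intervals of HIVEP1 and NFIX also lie below 0.

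Genes that work with the members were set beside them from general knowledge. Of 63 such genes 61 were tested, and with CPI203 2 fell and 1 rose by limma, with a median difference of 0.03. Over all genes tested 3.99% fell and 3.3% rose (7.28% in all), so the partner genes were not called more often than genes at large. In the list of kindlin and integrin adhesion genes, 1 of 18 passed. ITGA4, the integrin alpha 4 chain that binds VCAM1 and fibronectin, fell by 0.81 on the log2 scale (SE 0.12, 1.75-fold lower, limma adjusted p = 0.013). ITGA4 levels were 9.41 (ARP1), 7.48 (JJN3) and 8.04 (RPMI-8226) with CPI203, against 9.91, 8.73 and 9.46 in control cells. With Combo ITGA4 was at 8.98, 7.03 and 7.92, against 9.45, 7.81 and 8.33 with LenDex, so arrays with CPI203 were lower in all 6 pairs.

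In the list of the ARF6 cycle, 2 of 26 passed, in opposite directions. CYTH2, a cytohesin and, like IQSEC1, an exchange factor for ARF proteins, rose by 1.05 (SE 0.14, 2.08-fold higher, limma adjusted p = 0.012). CYTH2 levels were 9.04 (ARP1), 8.84 (JJN3) and 9.12 (RPMI-8226) with CPI203, against 8.27, 7.63 and 7.47 in control cells, and 8.83, 9.02 and 9.08 with Combo, against 8.42, 8.13 and 7.67 with LenDex. All 6 arrays with CPI203 were above all 6 without it. PSD4, another ARF6 exchange factor, fell by 0.38 (SE 0.10, limma adjusted p = 0.049), a call lost without any 1 line or array (lowest adjusted p 0.0574). ITGA4 and CYTH2 kept their calls without ARP1 and lost them without JJN3 (adjusted p 0.336 for each) or RPMI-8226 (0.331 for ITGA4 and 0.308 for CYTH2), and ITGA4 also without the JJN3 CPI203 array (0.0501). With JJN3 and RPMI-8226 averaged, ITGA4 (-0.73) and CYTH2 (0.94) had a limma adjusted p of 0.228 each and PSD4 (-0.43) of 0.233, so all 3 calls were lost. None of the 7 SLITRK receptor and ligand genes and none of the 10 genes tied to HIVEP proteins passed in limma, with medians of 0.03 and -0.06. At an unadjusted p under 0.05, 1 of the 7 and 2 of the 10 did, all of them higher with CPI203. These counts too are given without the share of all genes tested.

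Across the 12 arrays, after each line's mean was taken out, the members' levels correlated with each other at 0.53 (IQSEC1 with SLITRK5) to 0.96 (NFIC with FERMT1) over the 21 pairs. The closest were NFIC with FERMT1, FERMT1 with FAM78A (0.95), NFIC with FAM78A (0.93) and NFIB with IQSEC1 (0.92). The arrays share lines and treatments and the genes were chosen for one of these, so the values are a description. NFIC, FERMT1 and FAM78A were also the members with the 3 lowest means for Combo against LenDex. Of all other tested genes, the 3 most like each member by the same measure were DCTD (0.991), RAI1 and MRPL34 for NFIC, WDR35 (0.979), AVEN and RBM12B for FERMT1, and SNUPN (0.982), MYADM and IFI16 for FAM78A. They were RUSC1 (0.949), PAXIP1 and FCHO1 for NFIB, ADCY3 (0.943), CHRAC1 and MAPKAPK3 for IQSEC1, MRPS26 (0.978), NAA25 and STAG2 for SLITRK5, and PGM5 (0.958), RNF44 and AP5B1 for HIVEP3. No gene was among the 3 of more than 1 member.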

How the data were processed

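The 12 arrays held the log2 levels that the authors deposited, which the submitters' processing notes ascribe to RMA and to Affymetrix Expression Console 1.1. That the scale is log2 was read from the values. Whether all arrays were normalised together is not given in the sources used here. RMA sets arrays to a common distribution, so differences are relative to the bulk of transcripts. Groups came from the treatment labels.

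Symbols came from the platform annotation, and 1327 probe sets with several symbols were not used to name genes. Each gene was represented by its brightest probe set. Treatment group and line were fitted in limma 3.58.1 (R 4.3.3) over all 12 arrays (6 residual degrees of freedom), with two-sided tests and Benjamini-Hochberg adjustment. The line was a block because same-numbered samples share a cell line. Within a line, array deviations from their group means correlated at 0.820 to 0.938. The test of line differences left 3 residual degrees of freedom. No label says that arrays came from separate cultures beyond the lines. The code was tested on simulated data.

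The members and the lists of paralogues and partner genes were chosen with earlier results of these data known. Named genes were all members, all paralogues, called partner genes (at most 4 a list), the 3 genes most like each member and the markers SDC1, PRDM1 and MS4A1. CD3D, IGKC, HBG1, PAX5 and the plasma cell markers beyond SDC1 and PRDM1 were named after their values were seen. TRAF2 was not analysed here. Motifs were searched on both strands of RefSeq promoter sequences. Alternatives were other filters, no block, a trended prior, cyclic loess, averaging of JJN3 with RPMI-8226, each contrast alone, and each line or array left out.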

Additional observations from a re-analysis of the deposited data

Results flagged for a closer look

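HIVEP3 stood out because, in its representative probe set, the LenDex difference had opposite signs without and with CPI203 in every line. LenDex was below control by 0.41, 0.60 and 0.56 on the log2 scale, and Combo was above CPI203 by 0.38, 0.33 and 0.38, in ARP1, JJN3 and RPMI-8226, a gap of 0.88 on average. HIVEP3 was chosen for a high control and a low CPI203 level on these arrays, which pushes the gap in this direction, so no test of the difference is given. Each of the other HIVEP3 probe sets departed in a line from LenDex below control with Combo above CPI203. Their Combo level was below CPI203 in RPMI-8226 (7.33 against 7.45), JJN3 (8.07 against 8.13) or ARP1 (5.94 against 7.01). In the ARP1 case the signs were opposite but reversed, since LenDex was above control (5.96 against 5.84).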

How the results depend on the processing

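Members lower with CPI203 in every pair at hand numbered 6, and 5 with a mean level of 6 or more (SLITRK5 is not in that set). With a line or array left out they numbered 6 to 7, with 7 only where the 1 pair in which HIVEP3 was higher, Combo against LenDex in JJN3, was left out. Of the members 1 was called for LenDex, and 2 were with a mean level of 6 or more (NFIB and IQSEC1; SLITRK5 is not in that test) and with cyclic loess, 0 without the replicate block, 0 with a trended robust prior, 0 with JJN3 and RPMI-8226 averaged, 0 for LenDex against control alone, 0 for Combo against CPI203 alone, and 0 to 1 with a line or array left out; where it was 0, 0 to 3 members had an unadjusted p under 0.05 in limma. The SLITRK5 adjusted p was 0.0647 with the trended robust prior and 0.169 with the lines averaged. Calls between ARP1 and the other lines numbered 5 to 7 with a line or array left out, against 6, and FERMT1 turned to 0.18 without RPMI-8226. Calls between JJN3 and RPMI-8226 were 4 with cyclic loess and 2 to 3 with a line or array left out, against 2. The paralogue count was 1, and it was 0 without the replicate block, with the lines averaged, for CPI203 against control alone and for Combo against LenDex alone, and 0 to 3 with a line or array left out, with 1 to 4 at an unadjusted p under 0.05 in limma where it was 0. The partner count was 3, and it was 6 with a mean level of 6 or more, 0 without the replicate block, 0 with the lines averaged, 0 for either contrast alone, and 0 to 12 with a line or array left out (12 without ARP1), with 3 to 13 at an unadjusted p under 0.05 where it was 0. For fits with a line or array left out, the share of all genes called is not given here. Counts from those fits, the 12 partner genes without ARP1 among them, therefore cannot be set against genes at large. The same holds for the counts at an unadjusted p under 0.05. The causes were not tested. With 1 array per line and treatment, and levels of SLITRK5 and of NFIB in ARP1 near the array median, small differences in these genes were not measured precisely.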

Other observations

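Of the partner genes, 5 of 61 were called in the LenDex average effect by limma, against 4.25% of all genes tested. Whether the LenDex calls that follow hold without the JJN3 control array, or with JJN3 and RPMI-8226 averaged, is not given here. VCL, the adhesion protein vinculin, rose by 1.04 (adjusted p = 0.018) and SMAP2, an ARF GTPase-activating protein, by 0.80 (adjusted p = 0.039). Both were uneven over the lines. In ARP1, LenDex against control was 10.59 against 10.28 for VCL and 8.17 against 8.17 for SMAP2. In JJN3 these levels were 12.43 against 10.76 and 10.62 against 9.23, and in RPMI-8226 11.97 against 10.21 and 10.67 against 9.22. ITGA4 fell by 0.59 (adjusted p = 0.027), and the NF-kB subunit genes NFKB2 and RELB fell by 0.45 (adjusted p = 0.016) and 0.60 (adjusted p = 0.026). ITGA4 was thus called lower in both drug effects. For Combo against CPI203, RELB was at 6.31 against 7.15 (ARP1), 8.41 against 8.52 (JJN3) and 8.18 against 8.16 (RPMI-8226), so its fall there was mainly in ARP1. Of the 13 paralogues 1, SLITRK6, was called for LenDex, at 1.92 higher (limma adjusted p = 0.027), and unevenly so. SLITRK6 was at 5.21 (ARP1), 8.24 (JJN3) and 9.21 (RPMI-8226) with LenDex, against 4.50, 5.26 and 5.79 in control cells, and at 4.99, 7.40 and 7.71 with Combo, against 4.96, 5.27 and 5.42 with CPI203, so its ARP1 levels were all near the array median.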
